A study of Mus musculus with 20 samples.

Results

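Meg3, Rian and Mirg are 3 long noncoding RNAs transcribed in the same direction from an imprinted region of mouse chromosome 12. The 3 genes were taken by symbol from a table of 25444 loci measured by RNA-seq in 20 livers. They had been chosen by the difference between females and males being opposite in the strains, so the sex differences given below describe how they were picked and were not tested. Livers came from C57BL/6N mice (B6) and C3H/HeN mice (C3), 5 females and 5 males of each strain, all untreated and 20 weeks old. The mice were bred commercially, housed 1 to a cage and moved to another diet shortly before necropsy, and tissue was taken from the left lateral lobe within a morning window. Each sex had a room of its own, and room and sex cannot be told apart. The study profiled these livers to ask how far expression is balanced between the sexes, above all for genes of the X chromosome.

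Imprinted genes are expressed from only one parental copy. In this region the noncoding RNAs are expressed from the maternal chromosome, whereas Dlk1, Rtl1 and Dio3, which encode proteins, are expressed mainly from the paternal one, and a germline methylation mark between Dlk1 and Meg3 keeps the copies apart. Meg3 is a spliced nuclear RNA, Rian is the host of a cluster of C/D small nucleolar RNAs, and Mirg is the host of a cluster of microRNAs. These RNAs are abundant in the embryo and placenta and in adult brain, and much less so in adult liver.

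In the files, which use the mm9 build, Meg3 (gene 17263) lies at chr12:110779206-110809939, Rian (gene 75745) at chr12:110842155-110899921 and Mirg (gene 100040724) at chr12:110973191-110987667, all on the forward strand. Rian begins 62.9 kb and Mirg 194.0 kb downstream of the first base of Meg3. The start of Meg3 is shown because Meg3 is the first of the 3 RNAs along the chromosome and varied together with Rian across livers. The RefSeq sequence of GRCm38.p6 from 250 bases before to 50 bases after that start is identical to chr12:110778956-110779255 of mm9 (forward strand). Capitals mark TGACGTCA, the cyclic AMP response element, and TATATAA, which resembles the core promoter box and was matched on both strands with overlap:
Meg3 start: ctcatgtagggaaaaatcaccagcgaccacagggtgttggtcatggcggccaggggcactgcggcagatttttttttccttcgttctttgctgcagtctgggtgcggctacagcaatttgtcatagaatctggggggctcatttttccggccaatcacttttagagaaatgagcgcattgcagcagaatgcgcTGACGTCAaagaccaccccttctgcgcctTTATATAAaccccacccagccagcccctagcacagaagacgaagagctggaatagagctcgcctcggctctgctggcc
The response element begins 57 bases and the forward TATATAA 27 bases upstream of the start. TGACGTCA occurred in 1.79% and TATATAA in 3.24% of the 32851 promoter windows of 300 bases in the same RefSeq table, both strands searched. The latter was searched for after the sequence had been seen. Of the other motifs searched, TATAAA (13.6% of windows, on both strands here and overlapping TATATAA) and TGCCGC, the core recognised by the imprint protein ZFP57 (11.6%), were also in the Meg3 window. The Rian window held only TTCNNNGAA, a STAT5 core found in 8.3% of windows, and the Mirg window held none of these motifs. RefSeq gives Meg3 a second window, chr12:110783358-110783657 of mm9, which held none of these motifs and is not shown. Such matches describe letters only.

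Mirg is best known for the microRNAs cut from it. The count table has 10 microRNA rows inside the Mirg span, and RefSeq gives 19 mature forms for them. Of these forms, 2 share a seed, bases 2 to 8 (in capitals), and they are shown as the products that this host would supply:
miR-453: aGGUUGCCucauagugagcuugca
miR-496a-5p: aGGUUGCCcaugguguguuca
Mature microRNAs are too short for these libraries, so their levels were not measured and only the host RNA is described.

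Meg3 was highest in B6 females. The B6 females had 6.60, 6.20, 7.53, 6.05 and 9.80 CPM (counts scaled to a common library total), and the B6 males 0.735, 0.865, 2.41, 2.08 and 2.39 CPM. The C3 females had 0.462, 0.618, 0.579, 1.09 and 0.471 CPM, and the C3 males 1.72, 1.80, 1.97, 2.5 and 1.12 CPM. Females and males did not overlap in either strain, with females above males in B6 and below them in C3. Taken singly, such a gap was found in 7.80% of all genes tested for B6 and in 3.56% for C3. Means were 7.24 ± 1.55 CPM (SD, n = 5; B6 females), 1.70 ± 0.83 (B6 males), 0.643 ± 0.257 (C3 females) and 1.82 ± 0.49 (C3 males). In the order of levels, B6 males and C3 males overlapped, and B6 males also overlapped C3 females through replicates 1 and 2. Of the 13704 genes tested, 2 (0.0146%), Meg3 and Slc7a5, an amino acid transporter named after its values were seen, had B6 females above B6 males and C3 females below C3 males without overlap. The opposite pattern, B6 females below and C3 females above the males, was found in 6 genes (0.0437%).

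**Figure D1:**
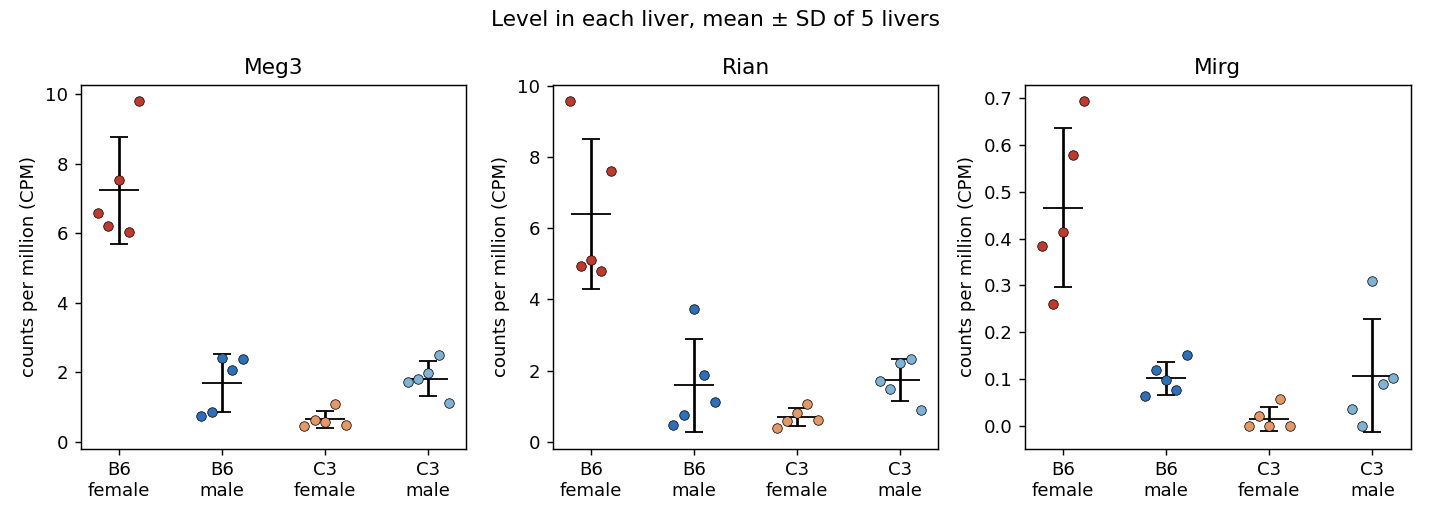
CPM of Meg3, Rian and Mirg in each liver (points, 5 per group), with the mean and SD of each group as black bars, on linear axes that differ between panels. The B6 females sit above the other groups in each panel, apart from 1 C3 male at 0.309 CPM of Mirg, and the C3 females have the lowest means.

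Rian followed the same order. The B6 females had 9.57, 4.94, 5.12, 4.81 and 7.61 CPM, and the B6 males 0.480, 0.746, 3.73, 1.88 and 1.12 CPM. The C3 females had 0.396, 0.572, 0.810, 1.06 and 0.618 CPM, and the C3 males 1.72, 1.47, 2.22, 2.34 and 0.886 CPM. The sexes did not overlap in B6 (females above males, as in 7.80% of all genes tested), whereas in C3 the lowest male lay below the highest female. Means were 6.41 ± 2.11 CPM (SD, n = 5), 1.59 ± 1.31, 0.691 ± 0.252 and 1.73 ± 0.59 in these groups. The B6 males were the most scattered, with a 7.78-fold range that ran from replicate 1 to replicate 3.

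Mirg was close to the limit of detection outside B6 females. The B6 females had 18, 12, 12, 21 and 24 counts and the B6 males 2, 4, 4, 3 and 5. The C3 females had 0, 1, 0, 2 and 0 counts and the C3 males 1, 0, 11, 4 and 3. All C3 females were thus at or under 3 counts, the level from which a gene can be shown in a library (0.0641 to 0.110 CPM at these depths, counting error only). Means were 0.466 ± 0.169 CPM (SD, n = 5; B6 females), 0.102 ± 0.035 (B6 males), 0.0160 ± 0.0250 (C3 females) and 0.108 ± 0.120 (C3 males). Against 3 counts per library, Mirg was at least 5.67-fold higher in B6 females than in females of C3. Males of C3 exceeded females of C3 by at least 1.31-fold. The second bound rests on replicate 3 of the C3 males, without which their mean was 0.0574 CPM, under the 0.0822 CPM that 3 counts stand for in C3 females, so that no fold can be given.

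Per length, Rian was the most abundant of the RNAs. In B6 females it had 3.76 ± 1.23 TPM (a scale of counts per transcript length; SD, n = 5), Meg3 1.18 ± 0.26 and Mirg 0.755 ± 0.279. The lowest Rian TPM among these livers, 2.83, was above the highest for Meg3, 1.61, and for Mirg, 1.13. In C3 females the means were 0.407 ± 0.147 TPM for Rian, 0.105 ± 0.041 for Meg3 and 0.0259 ± 0.0405 for Mirg.

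The fitted differences between the sexes had the same size for each RNA in B6. In an edgeR model of group and sequencing pool, females exceeded males in B6 by a log2 difference of 2.05 (SE 0.27) for Meg3, 2.03 (SE 0.32) for Rian and 2.05 (SE 0.46) for Mirg, about 4.13-fold for Meg3. In C3, the female minus male log2 difference was -1.66 (SE 0.32) for Meg3 and -1.59 (SE 0.38) for Rian. The difference between these differences was -3.71 (SE 0.42) for Meg3 and -3.62 (SE 0.50) for Rian. These contrasts chose the genes, so no test is given. For the background alone, 6.34% of all genes tested were called for sex in B6, 6.90% in C3 and 0.401% for the sex-by-strain interaction (adjusted p under 0.001 and a log2 difference over 0.5 in either direction).

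**Figure D2:**
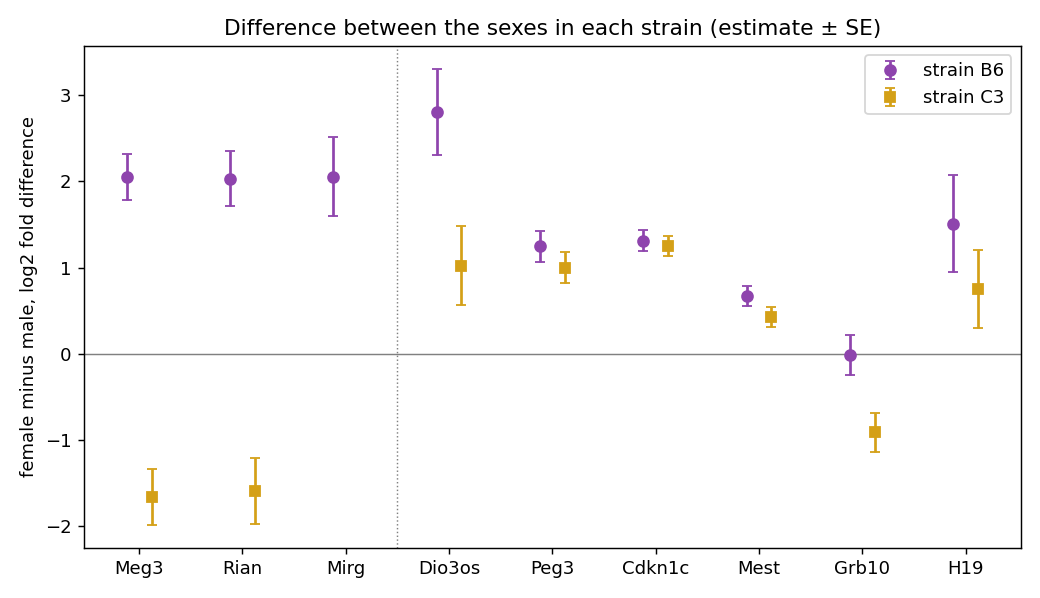
Female minus male log2 difference (estimate ± SE) in B6 (circles) and C3 (squares) for the 3 RNAs, left of the dotted line, and for Dio3os and 5 imprinted genes of other regions. Meg3 and Rian lie near 2 in B6 and below -1.5 in C3, Mirg is drawn for B6 only because all C3 females were at or under 3 counts, Peg3 and Cdkn1c lie above 0 in both strains, and the C3 value of H19 depends on 1 male with 44 counts.

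Within each sequencing pool the directions were the same, with sizes that varied. On a log2 CPM scale, Meg3 differed between the sexes of B6 by 2.29 in pool 1, 3.22 in pool 2 and 1.41 in pool 3, and in C3 by -1.36, -1.55 and -2.07. Rian differed in B6 by 2.58, 3.24 and 1.28, and in C3 by -1.14, -1.59 and -1.81. Each of these values rests on 1 or 2 livers of a group.

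The mean difference between the strains was not used to choose the genes and was tested for Meg3 and Rian. Averaged over the sexes, Meg3 was lower in C3 than in B6 by 2.99-fold (log2 difference -1.58, SE 0.21, adjusted p = 4.69e-06, edgeR quasi-likelihood test over all genes). Rian was lower in C3 by 2.55-fold (-1.35, SE 0.25, adjusted p = 0.000218). Both were called, in a comparison that called 12.6% of all genes tested (adjusted p under 0.001 and a log2 difference over 0.5). Mirg passed the filter on low counts mainly through the B6 females, where it is high, so its difference is given without a test. It had 105 counts in all B6 and 22 in all C3 livers, and a fitted log2 difference of -2.17 (SE 0.48) whose size depends on how the C3 females near 0 are treated.

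This average did not describe both sexes alike. The C3 minus B6 log2 difference was -3.43 (SE 0.30) for Meg3 in females and 0.28 (SE 0.29) in males. For Rian it was -3.16 (SE 0.35) in females and 0.46 (SE 0.35) in males. All 5 C3 females had less Meg3 and less Rian than all 5 B6 females, whereas the males of the strains overlapped. The share of all genes with such a gap between the females was not counted, so how common it is was not shown. Since the difference between these values is the interaction that chose the genes, they were not tested.

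Summed over the livers of a group, Meg3 and Rian counts had similar proportions, whereas single livers varied. Over all livers 0.941 Rian counts were found per Meg3 count, with 0.920 (B6 females), 0.971 (B6 males), 1.08 (C3 females) and 0.948 (C3 males). The log2 ratio of single livers ran from -0.56 to 0.54 in B6 females and from -1.08 to 0.63 in B6 males. In C3 it ran from -0.21 to 0.48 in females and from -0.34 to 0.17 in males. Replicate 3 of the B6 males held 150 of their 300 Rian counts. The log2 ratio of Rian to Meg3 was 0.24 higher in C3 than in B6 (exact permutation test of the strain labels within sex, two-sided, p = 0.210, adjusted p = 0.210 over 3 ratios). The Rian to Meg3 ratio was thus not shown to differ between the strains. For Mirg to Meg3 the difference was -0.76 and for Mirg to Rian -1.0. These are given without a test, since few Mirg counts lie outside the B6 females. With so few counts, a difference in the share of Mirg could be missed. Mirg counts were 0.0634 of Meg3 counts in B6 females and 0.0250 in C3 females, the latter from 3 Mirg counts in all.

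Livers of the same group also had Meg3 and Rian high or low together. After group and pool were removed from log2 CPM, deviations of Meg3 and Rian correlated over the 20 livers with r = 0.767 (permutation p = 0.000760, adjusted p = 0.00228 over 3 pairs) and rho = 0.752 (permutation p = 0.00106, adjusted p = 0.00318). Without the 2 livers farthest from the median of Meg3 the correlation was r = 0.698 (permutation p = 0.00433). It was 0.789 in the 8 livers of pool 1 and 0.747 in the 7 of pool 3, and pool 2 held only 5 livers. Both RNAs of a liver come from 1 library and share its depth and handling. Correlations of Mirg are given without a test, since few of its counts lie outside the B6 females. Meg3 and Mirg gave r = 0.296 with rho = 0.447, and Rian and Mirg gave r = 0.280 with rho = 0.295. Without the 2 farthest livers r was 0.256 and 0.224 for these pairs.

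**Figure D3:**
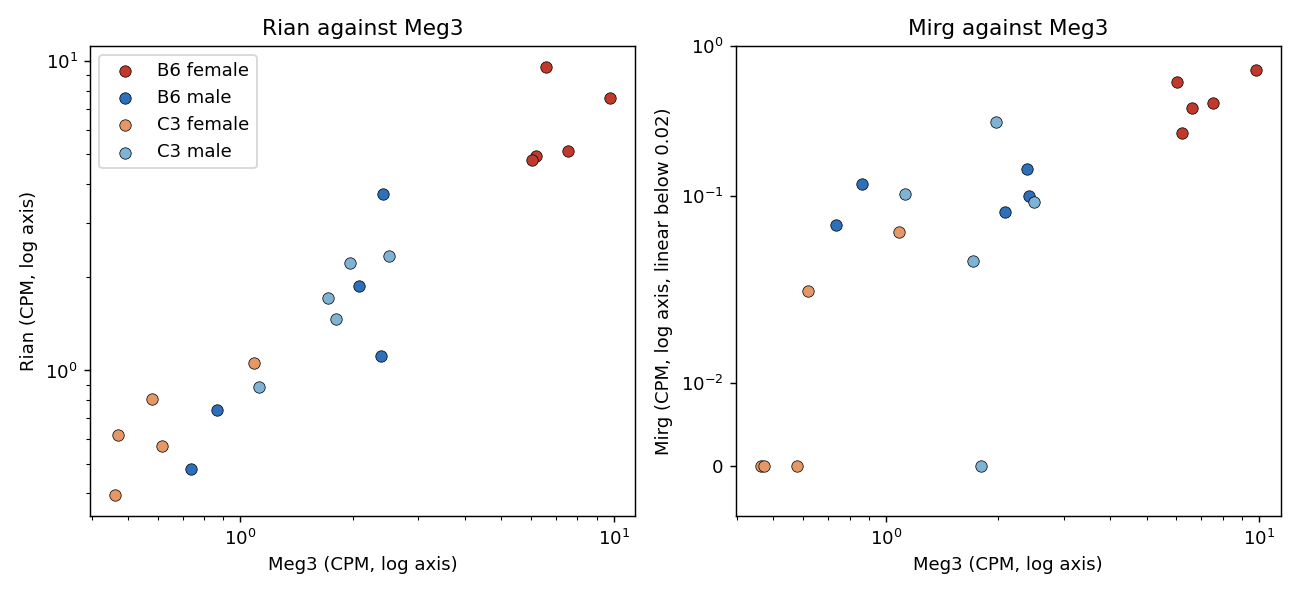
Rian against Meg3 (left) and Mirg against Meg3 (right) in CPM, 1 point per liver coloured by group, on log axes, the Mirg axis being linear below 0.02 so that livers without a count can be drawn. Rian rises with Meg3 across the groups, whereas 3 C3 females and 1 C3 male have no Mirg count.

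The rest of the region gave few reads. Between the first base of Meg3 and the last of Mirg the table holds 66 further forward-strand loci, 58 of them microRNAs, 7 small nucleolar RNA rows with AF and DQ names and 1 transcript antisense to Rtl1, 6430411K18Rik. Reads that overlap a host exon and a small RNA were not counted for either, so these rows and the hosts share no counts. Together they had 269 counts, of which B6 females held 164, B6 males 36, C3 females 30 and C3 males 39. Their sum was 0.834 ± 0.399 CPM (SD, n = 5; B6 females), 0.191 ± 0.177 (B6 males), 0.164 ± 0.068 (C3 females) and 0.214 ± 0.104 (C3 males). The lowest B6 female, at 0.484 CPM, was above the highest liver of the other groups, at 0.398 CPM, and the sexes of C3 overlapped. The antisense transcript 6430411K18Rik alone had 31 counts (B6 females), 10 (B6 males), 2 (C3 females) and 5 (C3 males). The 4 reverse-strand loci in the interval, Rtl1 among them, had no count in any liver.

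The paternally expressed genes that flank the 3 RNAs were barely detected. Dlk1, a ligand-like membrane protein of the fetal liver, had at most 3 counts in any liver, and Begain, a neighbour of Dlk1, at most 3. Dio3, a deiodinase that inactivates thyroid hormone, had 3 to 7 counts in B6 females, 0 to 2 in B6 males, 2 to 11 in C3 females and 0 to 5 in C3 males. These genes did not pass the filter on low counts. Dio3os, a noncoding RNA on the strand opposite Dio3, averaged 1.13 ± 0.43 CPM in females of B6 and 0.157 ± 0.092 in males of B6 (SD, n = 5), which did not overlap. It was higher in B6 females by a log2 difference of 2.80 (SE 0.50, edgeR adjusted p = 0.000336). In C3 it had 0.824 ± 0.246 CPM in females and 0.403 ± 0.275 in males, which overlapped, and the log2 difference was 1.02 (SE 0.46, edgeR adjusted p = 0.0840), with the same sign as in B6. The interaction was not called for Dio3os (-1.79, SE 0.70, edgeR adjusted p = 0.20).

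**Figure D4:**
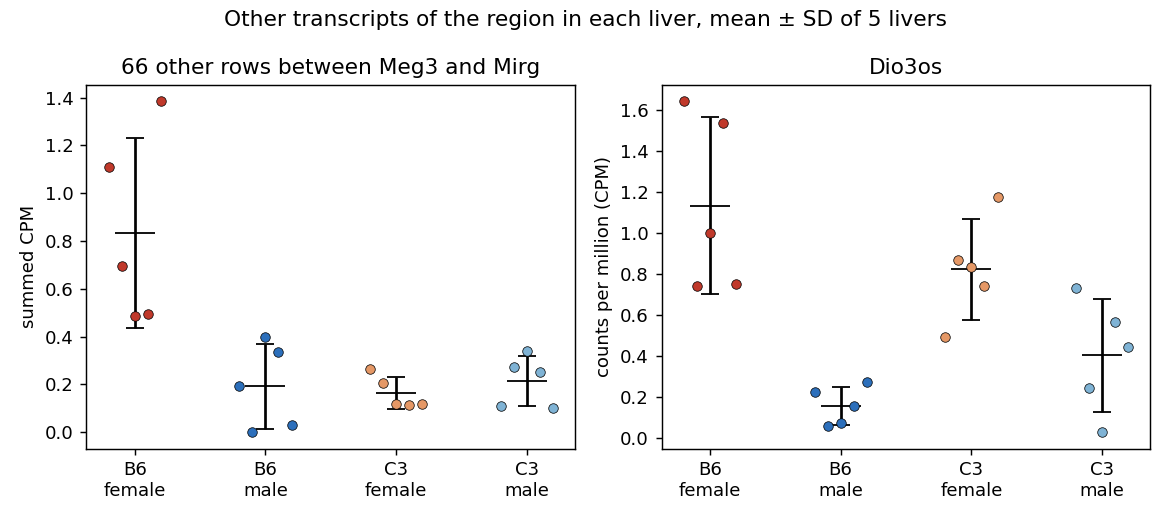
Summed CPM of the 66 other forward-strand loci between Meg3 and Mirg (left) and CPM of Dio3os (right) in each liver, with the mean and SD of the 5 livers of each group. On the left the B6 females lie above all other livers, and on the right the females lie above the males in B6 and overlap them in C3.

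Sex differences were called by edgeR for 2 of the neighbours tested. Within 1 Mb of the interval from Meg3 to Mirg lie 91 other loci, 23 of them without a count in any liver, and 12 passed the filter. Of these 12, edgeR called 1 for sex in B6 (Dio3os), 1 in C3 and 4 for the mean strain difference, beside 6.34%, 6.90% and 12.6% of all genes tested. DESeq2 called 2 for sex in B6 (Dio3os and Evl), 1 in C3 and 3 by strain, beside 1144, 1378 and 1992 of all genes. For the interaction edgeR and DESeq2 called 0, beside 0.401% of all genes with edgeR and 181 genes with DESeq2. So short a list cannot be told from all genes by these calls. Unadjusted p-values under 0.05 with edgeR numbered 2 for the interaction (Dio3os and Hsp90aa1), 4 for sex in B6, 6 for sex in C3 and 5 by strain. Over all 13704 genes they numbered at least 405, 4742, 5479 and 6340, the genes with an adjusted p under 0.05. The full numbers were not counted. The median log2 differences of the 12 were -0.04 for sex in B6, -0.02 for sex in C3 and -0.03 for the interaction, beside 0.00, 0.01 and 0.01 over all genes tested. For the mean strain difference the median was 0.15, beside 0.02 over all genes. The gene called in C3 was Hsp90aa1, a stress-inducible chaperone, lower in females by a log2 difference of -1.38 (SE 0.24, edgeR adjusted p = 0.000259). By strain, Evl, an actin regulator, was lower in C3 (-0.97, SE 0.12, edgeR adjusted p = 1.69e-06). Wdr25 (0.65, SE 0.08), Slc25a29, a mitochondrial amino acid carrier (1.10, SE 0.21), and B930059L03Rik (0.68, SE 0.14) were higher in C3, with edgeR adjusted p-values of 1.16e-06, 0.000296 and 0.000663.

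For the imprinted genes listed from other regions, interaction calls cannot tell so short a list from all genes. Of 34 listed, 23 passed the filter, and 0 were called for the interaction by edgeR or DESeq2 (over all genes 0.401% with edgeR and 181 genes with DESeq2). Unadjusted p-values under 0.05 with edgeR numbered 2 for the interaction (Grb10 and Peg12), 13 for sex in B6, 15 for sex in C3 and 9 by strain. Over all 13704 genes they numbered at least 405, 4742, 5479 and 6340, and the full numbers were not counted. The median interaction was -0.05. For sex, edgeR called 3 in B6 and 2 in C3, all higher in females, beside 6.34% and 6.90% of all genes tested. DESeq2 called 4 in each strain, beside 1144 of all genes in B6 and 1378 in C3. The 4 were the genes called by edgeR and also Mcts2 in both strains and Grb10 in C3. Mcts2, named after its values were seen, had edgeR log2 differences of -0.50 (SE 0.12) in B6 and -0.52 (SE 0.12) in C3, and Grb10 had -0.91 (SE 0.23) in C3, lower in females. Cdkn1c, an inhibitor of the cell cycle, was higher in females by a log2 difference of 1.31 (SE 0.12, edgeR adjusted p = 1.40e-07) in B6 and 1.25 (SE 0.12, edgeR adjusted p = 2.29e-07) in C3. Peg3, a zinc finger gene, was higher by 1.25 (SE 0.18, edgeR adjusted p = 4.28e-05) and 1.0 (SE 0.18, edgeR adjusted p = 0.000424). Mest was higher in B6 females (0.67, SE 0.12, edgeR adjusted p = 0.000253) and had 0.43 (SE 0.12, edgeR adjusted p = 0.00970) in C3. Grb10, an adaptor of growth factor receptors, was the 1 gene called by strain (12.6% over all genes), higher in C3 (0.78, SE 0.16, edgeR adjusted p = 0.000646). H19, a maternally expressed noncoding RNA like Meg3, had 0.341 ± 0.153 CPM (SD, n = 5; B6 females), 0.120 ± 0.076 (B6 males), 0.519 ± 0.218 (C3 females) and 0.335 ± 0.486 (C3 males). Its female minus male log2 difference was 1.51 (SE 0.56, edgeR adjusted p = 0.0456) in B6 and 0.75 (SE 0.45, edgeR adjusted p = 0.198) in C3, neither of them called. The mean of C3 males rested on replicate 2, which had 44 counts. Without it the mean was 0.119 CPM, the other 4 livers lying between 0.0681 and 0.197 CPM, and the sex difference in C3 was 2.01 (SE 0.34). That liver was left out after its value had been seen, so no test is given. Igf2, its paternally expressed neighbour, had at most 16 counts in a liver and did not pass the filter. The median log2 differences of the 23 were -0.01 for the mean strain difference, 0.01 for sex in B6 and 0.17 for sex in C3.

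Of 19 genes listed that keep imprints or act on imprinted genes, 17 passed the filter. For the interaction 0 were called by edgeR or DESeq2. In so short a list this cannot be told from the 0.401% of all genes with edgeR or the 181 genes with DESeq2. Unadjusted p-values under 0.05 with edgeR numbered 1 for the interaction (Zfp445), 6 for sex in B6, 10 for sex in C3 and 9 by strain. Over all 13704 genes they numbered at least 405, 4742, 5479 and 6340, and the full numbers were not counted. Median log2 differences were 0.03 for the mean strain difference, 0.06 for sex in B6, 0.08 for sex in C3 and -0.06 for the interaction. edgeR called 1 for sex in B6, 2 in C3 and 1 by strain, beside 6.34%, 6.90% and 12.6% of all genes tested. DESeq2 called 1, 2 and 2, beside 1144, 1378 and 1992 of all genes. Tet2, which oxidises methylcytosine, was higher in B6 females (0.62, SE 0.12, edgeR adjusted p = 0.000950) and had 0.47 (SE 0.13, edgeR adjusted p = 0.00680) in C3. Zfp445, a zinc finger protein that binds imprinted regions, and Zhx2, a repressor of fetal liver genes, were lower in C3 females than in C3 males (-0.79, SE 0.11, and -0.61, SE 0.09, with edgeR adjusted p-values of 3.44e-05 and 8.81e-05). In B6 they had -0.41 (SE 0.11) and -0.37 (SE 0.09), with edgeR adjusted p-values of 0.00721 and 0.00490. Dnmt3b, a de novo DNA methyltransferase, was the 1 gene called by strain, higher in C3 (0.57, SE 0.11, edgeR adjusted p = 0.000427). Zfp57 had 0.617 ± 0.247 CPM (SD, n = 5; B6 females), 0.484 ± 0.132 (B6 males), 0.874 ± 0.204 (C3 females) and 0.795 ± 0.135 (C3 males), and its mean strain difference of 0.71 (SE 0.19, edgeR adjusted p = 0.00484) was not called.

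Among the other 13701 genes tested, those most like the mean standardised level of the 3 RNAs over the 20 livers were Evc (r = 0.833), Noct (0.811), Gnpda1 (0.797), Npr2 (0.790) and Ncmap (0.790), given without a test. Evc, a component of primary cilia, had 4.93 ± 0.98 CPM (SD, n = 5; B6 females), 1.68 ± 0.21 (B6 males), 1.36 ± 0.28 (C3 females) and 1.18 ± 0.23 (C3 males). Noct, a circadian enzyme, had 28.6 ± 27.9, 5.43 ± 3.50, 0.597 ± 0.275 and 2.36 ± 1.69 CPM in these groups. The B6 female mean of Noct rested on replicate 2, without which it was 16.4 CPM. Noct thus had the order of means B6 females, B6 males, C3 males, C3 females. The least like were Slc44a1 (-0.847), Extl1 (-0.813) and 2610305D13Rik (-0.811). Once group and pool were removed, the most like were Pde1b (0.817), Bola2 (0.804), U2af1l4 (0.795), Fam131a (0.788) and Nelfe (0.777), none of which was in the first list.

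The sex labels matched the reads: Xist had 12349 to 25729 counts in females and 0 to 11 in males, and Ddx3y 0 to 1 in females and 2340 to 4320 in males. Total counts ran from 27370921 to 46835745 per library and followed the sequencing pool. Hepatocyte markers, 6 of 6, were present throughout. They summed to 99972 to 124729 CPM in B6 females, 74965 to 97523 in B6 males, 136597 to 153551 in C3 females and 100790 to 123707 in C3 males. Markers of stellate cells, 5 of 5 counted in every liver, summed to 538 to 624 CPM in B6 females, 418 to 446 in B6 males, 416 to 440 in C3 females and 330 to 371 in C3 males. Those of Kupffer cells, 5 of 5, summed to 338 to 454, 206 to 339, 232 to 356 and 152 to 227 CPM, and those of sinusoidal endothelial cells, 5 of 5, to 361 to 427, 281 to 321, 328 to 383 and 276 to 334 CPM. Lymphocyte markers, 5 of 5, summed to 3.13 to 5.19, 1.28 to 4.19, 1.97 to 2.66 and 0.727 to 1.01 CPM. Bile duct markers, 4 of 4, summed to 3.67 to 4.84, 4.63 to 8.48, 3.84 to 5.80 and 4.68 to 7.45 CPM. The stellate, Kupffer, endothelial and lymphocyte sums had their highest medians in B6 females, as did the 3 RNAs, and their medians in C3 were higher in females than in males, unlike those of the 3 RNAs. Their part in the levels of Meg3, Rian and Mirg was not tested, and in whole liver fewer cells of a type and less RNA per cell cannot be told apart. Of 5 pancreas markers 4 were at or under 3 counts in every liver, Prss2 and Pnlip at 0, and the sum reached 0.824 CPM in B6 females, 0.373 in B6 males and 0 in C3. Of 4 fat markers Plin1 and Lep were at or under 3 counts, Lep at 0, and the sum ran from 0.118 to 5.34 CPM, highest in B6 males.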

How the data were processed

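Liver RNA of 20 mice was grouped by the labels' strain and sex, with the labels' sequencing pool as a covariate. The authors deposited raw counts, in read pairs on each gene, made from stranded, ribosomal RNA-depleted libraries with Cutadapt 1.9.1, STAR 2.5.1b on mm9 and featureCounts of Subread 1.5.0-p1 on RefSeq exons by strand, with reads mapping to several places or overlapping several genes left out, and a table of TPM values. The headers of the symbol and identifier columns are exchanged in the files and were read by content.

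Counts were fitted in R 4.3.3 with edgeR 4.0.16: filterByExpr by group (13704 of 25444 loci; all 3 RNAs passed, Mirg mainly through B6 females), TMM, quasi-likelihood tests with group and pool as terms, and Benjamini-Hochberg adjustment over all genes tested. A gene was called at an adjusted p under 0.001 with a log2 difference over 0.5 in either direction. CPM used total counts, log2 CPM a prior count of 2, and ratios 0.5 added counts. Ratios were tested by exact permutation of strain within sex (63504 relabelings) and correlations by 100000 permutations within groups (SciPy 1.17.1). Ratios and correlations of Mirg counted in the adjustments over 3 and are given without a test. The edgeR fit alone was tested on simulated counts, in which only strain changes were put in. Alternatives were DESeq2 1.42.0, limma 3.58.1 on log2(TPM + 1) or log2(TPM + 0.1), other normalizations, no filter, no pool, a replicate block, looser thresholds and leaving out each liver.

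The members, gene lists and motifs were chosen with earlier results of these data known. The text names the 3 RNAs, Begain, Dlk1, Rtl1, Dio3, H19, Igf2 and Zfp57 whatever their values, listed or neighbouring genes called in a comparison, and the genes most and least like the 3 RNAs. Library totals of 27370921 to 46835745 counts make 3 counts equal to 0.0641 to 0.110 CPM. This limit covers counting error only.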

Additional observations from a re-analysis of the deposited data

Results flagged for a closer look

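For Meg3, the female minus male log2 difference in C3 minus that in B6 was -3.71, with every B6 female above every B6 male and every C3 female below every C3 male. This pattern chose the gene, and the difference was not tested. In 36 groups of 5 livers examined for 1 value far from the other 4, where chance gives about 1 in 20, 4 were found. Replicate 4 of the C3 females had 1.09 CPM of Meg3, beside 0.618 CPM or less in the others. Replicate 1 of the B6 females had a log2 ratio of Rian to Meg3 of 0.54, the highest of its group. H19 reached 0.605 CPM in replicate 4 of the B6 females and 1.20 CPM in replicate 2 of the C3 males.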

How the results depend on the processing

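The sex differences of Meg3 and Rian kept their signs, positive in B6 and negative in C3, under every alternative and without each liver in turn, and Meg3 and Rian remained lower in C3 on average. The values that moved were these. limma on log2(TPM + 1) shrank low levels: the mean strain difference was -0.46 for Meg3 (under the fold limit of 0.5), -0.75 for Rian and -0.38 for Mirg, the sex differences of Meg3 were 0.78 in B6, -0.24 in C3 and -1.02 for C3 minus B6, those of Rian -0.59 in C3 and -1.95 for C3 minus B6, and those of Mirg 0.58, -0.17 and -0.76. With log2(TPM + 0.1) the values were -1.0 and -2.86 for Meg3 in C3 and C3 minus B6, and -0.91 and -2.58 for Mirg. The fitted mean strain difference of Mirg, given without a test, was -2.30 with DESeq2, -2.20 with upper-quartile normalization and -1.46 with log2(TPM + 0.1), and ran from -2.59 to -1.94 over the single livers left out. Mirg differences that involve C3 depend on how counts near 0 are treated: without single livers they ran from -3.40 to -1.78 in C3 and from -5.44 to -3.82 for C3 minus B6, replicate 4 of the C3 females and replicate 3 of the C3 males giving the ends. Without pool 3, an alternative added after the data were seen, the sex difference in B6 was 2.60 for Meg3 and 2.80 for Rian, and Mirg had -0.93 in C3 and -2.78 for C3 minus B6. Without replicate 2 of the C3 males, also added later, the C3 minus B6 difference of H19 turned from -0.76 to 0.52, and its mean strain difference went from 1.04 to 0.40. With 2 added counts, another later addition, the Mirg to Meg3 ratio turned to 0.079. The strain differences in the Mirg ratios ran from -1.0 to -0.44 for Meg3 and from -1.20 to -0.71 for Rian over the livers left out. Correlations of Mirg ran from 0.24 to 0.36 with Meg3 and from 0.22 to 0.34 with Rian. The cause of these changes was not tested.

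Counts of genes called moved most with the threshold. At an adjusted p under 0.05 with no fold limit, 6340 genes were called by strain, 4742 by sex in B6, 5479 by sex in C3 and 405 by the interaction, with 10 neighbours, 19 imprinted genes and 14 imprint maintenance genes called in any comparison. DESeq2 called 181 interactions. Without the pool term 421 genes were called by sex in B6, 482 in C3, 20 by the interaction, 3 neighbours and 0 maintenance genes. limma on log2(TPM + 1) called 3 neighbours and 2 maintenance genes, and on log2(TPM + 0.1) 2 maintenance genes. Without single livers the interaction count was 32 to 55, neighbours 3 to 6, imprinted genes 2 to 4 and maintenance genes 2 to 4. Counts fell by over 1.5 times without replicate 1 or 4 of the B6 males (imprinted genes, 2 each), replicate 1 of the B6 males (32 interactions), replicate 1 of the C3 females (34 interactions) and replicate 4 of the C3 males (33 interactions, 3 neighbours, 2 maintenance genes).

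Replicate numbers are shared between groups but did not pair the livers: after group and pool were removed, mean correlations of same-numbered livers were 0.10 between the sexes of B6, -0.01 between those of C3, 0.06 between females and 0.01 between males. With the replicate block the mean strain differences were -1.55 for Meg3, -1.29 for Rian and -2.22 for Mirg, 40 genes were called by the interaction, and no call of Meg3 or Rian changed. Depth limits Mirg, the small RNA rows and Dio3, where 3 counts or fewer were common.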
